A study of Mus musculus with 44 samples.

Results

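The data are joins between a targeted DNA break on mouse chromosome 2 and distant intergenic sequence on other chromosomes. They were read by high-throughput genome-wide translocation sequencing (HTGTS), which amplifies from a fixed bait end and sequences whatever DNA, the prey, has been ligated to it. A junction was counted when its prey lay on chromosomes 1, 3 to 19, X or Y, more than 10 kb from every AsiSI motif, outside all annotated genes and more than 3 kb from a transcription start. 4 short windows of repeated sequence on chromosomes 9, 12 and 14 were left out. Of 148726 junctions in 32 libraries, 13038 met the rule, 6136 in the 26 libraries with the AsiSI bait and 6902 in the 6 libraries with the Cas9 bait. The rule used annotation and position and no measured level.

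All libraries came from C57BL/6 mouse embryonic fibroblasts (MEFs), which the labels give as wild type. AsiSI is a bacterial restriction enzyme, and in the AsiSI-MEFs its expression was induced with doxycycline at 3 µg/ml for 24 h and its entry into the nucleus with 4-hydroxytamoxifen (4OHT) at 1 µg/ml for the last 6 h, in treated and control libraries alike. It cuts a subset of its motifs in the genome of these cells, so a bait end can meet other AsiSI breaks as well as breaks of other origin. In the 6 Cas9 libraries the bait was cut by Cas9 in wild-type MEFs, with the guide RNA introduced 48 h before lysis; the labels of these libraries also name 4OHT. AsiSI-MEFs were compared with and without the ARP2/3 inhibitor CK-666 (100 µM, 6 h; 6 pairs), the DNA-PKcs inhibitor NU7441 (10 µM, 1 h of pretreatment; 3 pairs) and the WASP inhibitor wiskostatin (3 µM; 2 pairs), each against DMSO, and with a nuclear actin R62D mutant that does not polymerise against empty vector (transfected 24 h before induction; 2 pairs). The Cas9 bait was compared with and without CK-666 in 3 pairs. Depth ran from 362 to 18428 junctions per library, with 18 to 1838 intergenic prey junctions in each. The labels do not say whether replicates were separate cultures, so p-values measure the spread between these libraries.

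A broken end is usually rejoined by non-homologous end joining, in which Ku and DNA-PKcs hold the ends and DNA ligase IV seals them. This leaves blunt joins, joins with a few shared bases, or short insertions. Ends that have been resected can instead be joined through longer shared stretches, as in polymerase theta-mediated end joining. Arrays of the telomeric repeat TTAGGG also lie inside mouse chromosomes, and short reads cannot place such repeats firmly.

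The target site of the bait is shown because the position of the bait end separates the 2 nucleases; capitals mark the AsiSI motif. AsiSI cuts the shown strand after the fifth base of the motif and leaves a 3' overhang of 2 bases, whereas the Cas9 cut lies 2 bases further along.
Bait target site, chr2:13271307-13271336, mm10, plus strand: ccctgtcccaGCGATCGCgcaggcgcacac

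2 of the 15 places found in the most libraries are shown next, numbered by rank and each read in the direction of its most frequent prey. Place 4 stands for junctions scattered over a repeated stretch, and the capital marks the first prey base of the most frequent junction. Place 11 was chosen after its values were seen because all its joins share the same 11 bases with the bait, marked in capitals.
Place 4, chr11:3101234-3101353, plus strand: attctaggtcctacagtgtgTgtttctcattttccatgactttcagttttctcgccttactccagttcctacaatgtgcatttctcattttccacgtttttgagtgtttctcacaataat
Place 11, chr9:20073313-20073432, plus strand: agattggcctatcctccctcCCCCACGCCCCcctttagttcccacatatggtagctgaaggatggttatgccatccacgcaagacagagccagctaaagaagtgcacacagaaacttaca

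Each junction was given at most 1 of 3 marks, which were set after the reads had been seen and therefore carry no p-values. 3276 junctions (25.1%) had a prey read with at least 3 telomeric repeat units. A further 923 (7.08%) had a bait that continued more than 10 bases past the AsiSI cut, and 605 (4.64%) had a prey read that was at least 85% purine or at least 85% pyrimidine. The remaining 8234 (63.2%) had no mark. With the AsiSI bait 71.0% of intergenic prey was unmarked, and with the Cas9 bait 56.2%.

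The 3 marks went with different junction forms. The overlap is the number of bases at the join that match both bait and prey, and it ran from an insertion of 30 bases to an overlap of 34. Telomeric prey was joined with inserted bases in 56.9% of cases and through 6 or more shared bases in 0.946%. One-sided prey carried insertions in 81.5%, with a median of 14 inserted bases, and 525 of its 605 reads were rich in pyrimidines. Of prey whose bait ran past the break, 58.8% shared 6 or more bases, with a median overlap of 8. Unmarked prey had a median of 3 bases among its insertions, which made up 12.3% of its joins.

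Over all intergenic prey, 1364 joins (10.5%) shared 6 or more bases, 5145 (39.5%) shared 1 to 5, 2930 (22.5%) were blunt and 3599 (27.6%) carried insertions. Unmarked AsiSI prey (4358 joins) was mostly short overlap, at 55.9%, with 19.7% blunt, 13.8% long and 10.6% insertion. Unmarked Cas9 prey (3876 joins) was 40.7% short overlap, 40.4% blunt, 4.64% long and 14.3% insertion.

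**Figure D1:**
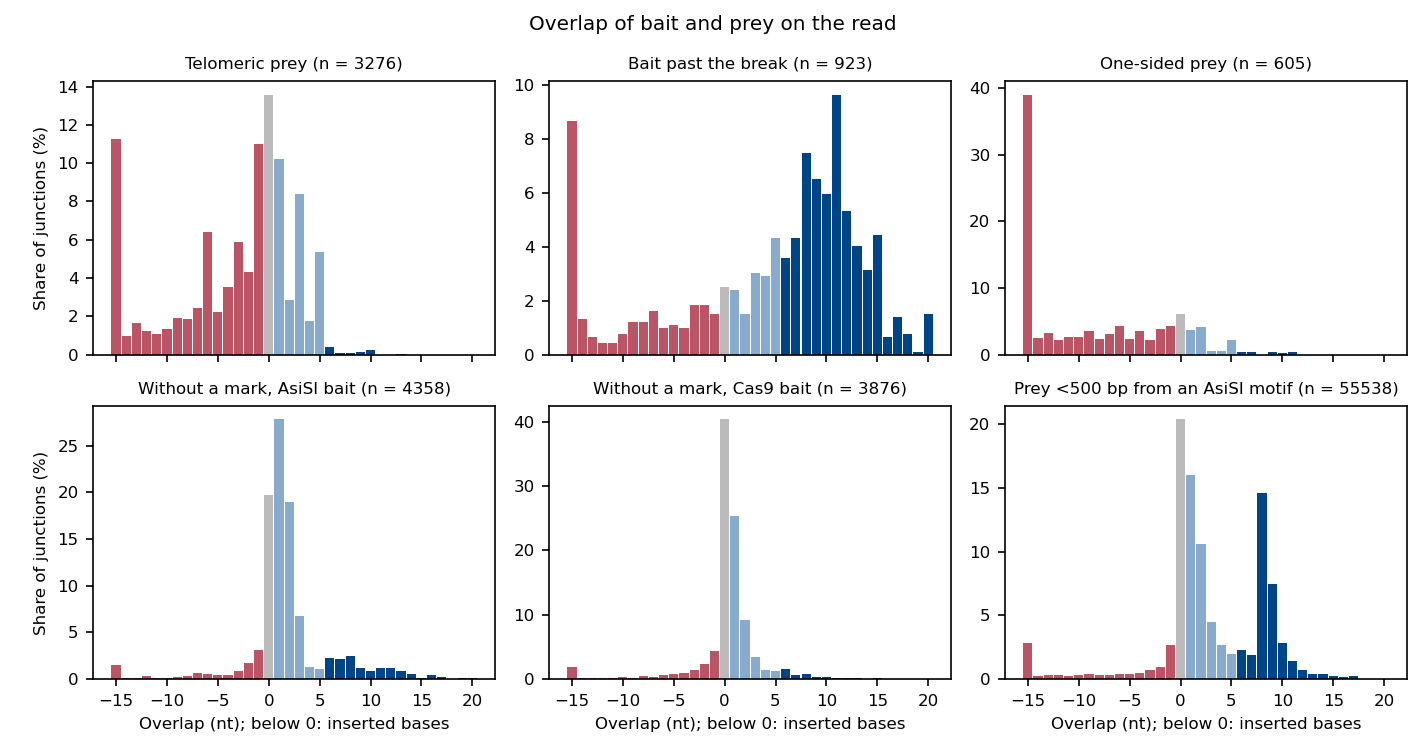
Overlap of bait and prey in bases (horizontal axis; negative values are inserted bases, and the end bars pool everything beyond them) against the share of junctions in percent (vertical axis), for the 3 marked classes, unmarked prey of each bait, and prey under 500 bp from an AsiSI motif. The prey under 500 bp from a motif lies on chromosomes other than that of the bait. Unmarked prey piles up between 0 and 5 bases. One-sided prey extends far into insertions (81.5%), and prey with bait past the break peaks among long overlaps (median 8).

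The bait end differed between the nucleases under DMSO. It is given here relative to the last base AsiSI leaves on the shown strand, after bases that could belong to the prey are removed, so 0 keeps the whole overhang and -2 has lost it. Pooled over all 26 AsiSI libraries, treated ones included, the most frequent end of unmarked joins was -2, with 1330 of 4358 (30.5%). It was followed by -1 (14.7%), 0 (12.8%) and -3 (11.1%). Over all 6 Cas9 libraries the most frequent end was +2, the Cas9 cut itself, with 1666 of 3876 unmarked joins (43.0%), followed by +1 (13.3%). Ends from -3 to 0 made up 26.2% to 78.1% of unmarked joins in the 11 AsiSI libraries under DMSO (median 65.4%) and 18.7%, 19.4% and 21.2% in the 3 Cas9 DMSO libraries. Ends at +1 and +2 made up 0% to 5.77% with AsiSI (median 1.19%) and 51.3%, 53.1% and 62.7% with Cas9. The groups overlapped in neither range. Over all 26 AsiSI libraries, ends from -3 to 0 ran from 17.4% to 100% and ends at +1 and +2 from 0% to 24.3%, against 18.7% to 21.7% and 49.4% to 62.7% in all 6 Cas9 libraries, so the range from -3 to 0 overlapped and that at +1 and +2 did not. The 2 AsiSI libraries with the most ends at +1 and +2 were the second actin R62D replicate (24.3% of 37 unmarked joins) and its control (17.4% of 23). The AsiSI library with the fewest ends from -3 to 0 was the fifth CK-666 replicate (17.4% of 46).

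**Figure D2:**
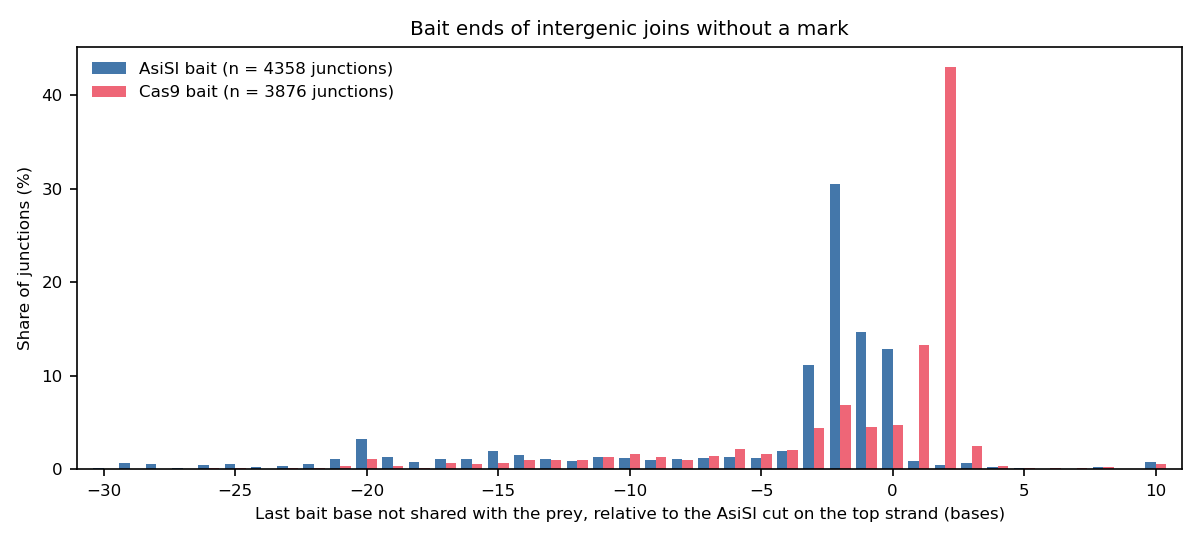
Last bait base not shared with the prey, relative to the AsiSI cut (horizontal axis, bases), against the share of unmarked intergenic junctions (vertical axis, percent), for the AsiSI and Cas9 baits. AsiSI joins peak at -2 (30.5%) and Cas9 joins at +2 (43.0%).

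Bait ends far from the cut were concentrated at a few positions. In AsiSI joins the end at -20 held 138 unmarked joins (3.17%). Among joins with long overlaps, the 2 most frequent ends were -20, with 133 AsiSI and 39 Cas9 joins, and +28, with 62 and 33. Of the long-overlap joins that were not telomeric, 40.7% (543 of 1333) had a bait that ran more than 10 bases past the break. In prey on other chromosomes under 500 bp from an AsiSI motif, 6 of 18237 long-overlap joins (0.0329%) with the AsiSI bait were of this kind. Place 11 is of this kind: all its 15 junctions, from 13 libraries, ended at bait base +28.

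The marks were unevenly spread over libraries. 3 libraries held 82.1% of all telomeric intergenic prey: replicate 2 of CK-666 with the Cas9 bait (1476 junctions), replicate 2 of DMSO with the Cas9 bait (908) and replicate 2 of NU7441 (306). The other libraries held 586 between them, and 25 of 32 libraries had at least 1. Intergenic prey was 56.3% of the 5823 telomeric prey junctions more than 10 kb from the bait break. Bait past the break made up 13.4% to 35.5% of non-telomeric intergenic prey in the 12 libraries of the CK-666 experiment with the AsiSI bait, and 0% to 7.52% in the 14 other AsiSI libraries. One-sided prey made up 17.8% to 59.4% in the 8 AsiSI libraries of 2 sequencing runs (median 33.1%) and 0% to 20.7% in the 18 others (median 4.31%), so the ranges overlapped. Because these shares followed the run and, for telomeric prey, single libraries, values without the marks are given beside the results below that change most.

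The intergenic share was taken as the number of intergenic prey junctions over all junctions of the library, leaving out those under 10 kb from the bait break and those on other sequences than chromosomes 1 to 19, X and Y. With the Cas9 bait under DMSO it was 27.0%, 41.9% and 33.6%. With the AsiSI bait under DMSO it ran from 3.78% to 7.94% over 11 libraries, with a median of 5.91%. Every Cas9 library lay above every AsiSI library. The means were 34.2% ± 7.49 (SD, n = 3) and 5.69% ± 1.64 (SD, n = 11), a 6.00-fold difference (exact permutation test, 2-sided, p = 0.00275, the smallest these groups allow; adjusted p = 0.0201 over 11 values compared between the baits). In the run that held both baits, the AsiSI library stood at 5.91%. Unmarked prey alone was 23.03%, 12.4% and 26.5% of junctions with Cas9 and 2.38% to 5.92% with AsiSI, again without overlap. The baits also differed in cell line, so nuclease and cell line cannot be told apart.

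**Figure D3:**
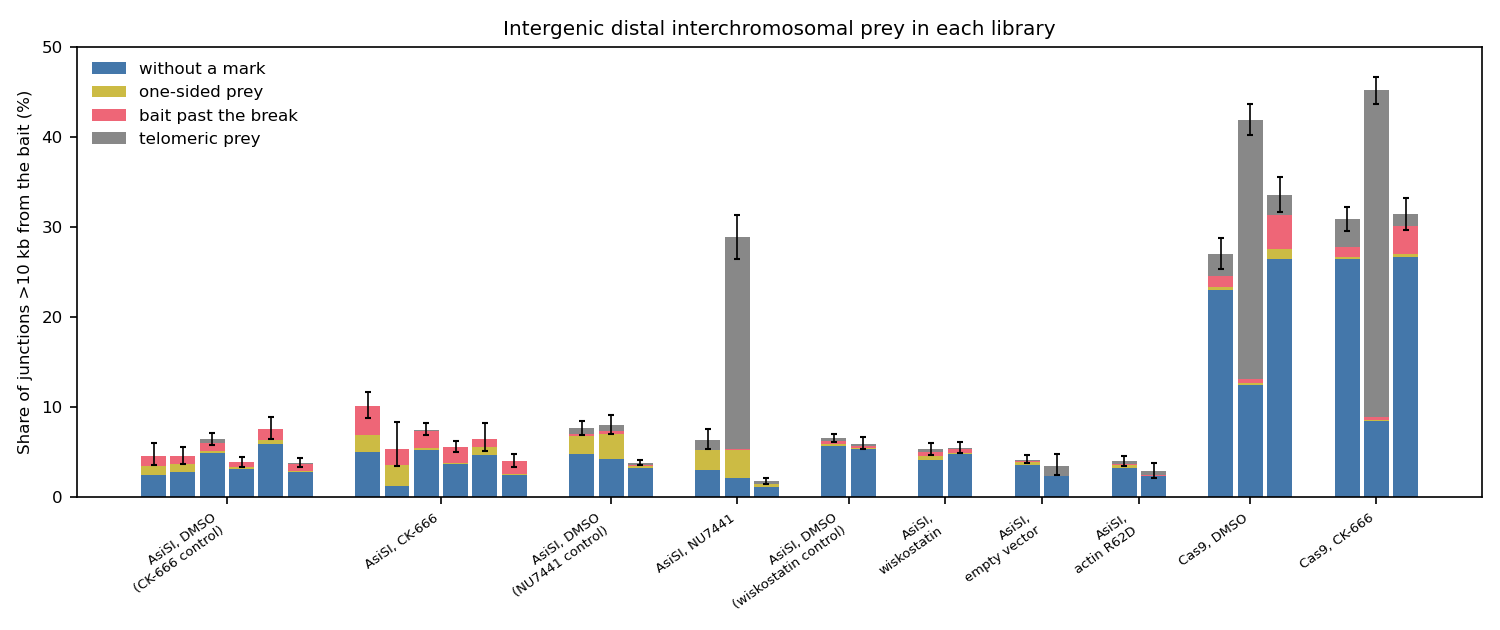
Intergenic prey as a percentage of junctions more than 10 kb from the bait break (vertical axis), 1 bar per library, by bait and treatment (horizontal axis), stacked by mark, with 95% Wilson intervals of the whole bar. The 6 Cas9 libraries sit between 27.0% and 45.2%; the AsiSI libraries sit at or below 10.1% except for 1 NU7441 library at 28.8%.

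Prey under 500 bp from an AsiSI motif stands in the denominator of that share. With the AsiSI bait this was 55538 junctions on other chromosomes over 26 libraries, and prey at chromosome 2 motifs more than 10 kb away came on top. In the 3 Cas9 DMSO libraries it was 21, 10 and 70 junctions on other chromosomes, against 2440 in the AsiSI DMSO library of the same run. The 6.00-fold difference in share therefore depends on this denominator as well as on the intergenic prey. Among distal interchromosomal prey alone, the intergenic portion was 43.3% to 53.6% with Cas9 and 34.2% to 45.8% with AsiSI under DMSO, means of 47.1% ± 5.66 (n = 3) and 38.3% ± 3.39 (n = 11) (exact permutation p = 0.0110, adjusted p = 0.0302). The ranges overlapped. Without telomeric prey the means were 42.2% ± 0.952 and 37.8% ± 3.14, a gap of 4.40 points in place of 8.74 (exact permutation p = 0.0412, unadjusted), and without the second Cas9 library, the one rich in telomeric prey, the gap was 5.49 points (exact permutation p = 0.0513, unadjusted). Blunt joins were 39.5%, 22.2% and 30.2% of intergenic prey with Cas9 and 9.85% to 22.7% with AsiSI, means of 30.6% ± 8.66 (n = 3) and 15.7% ± 4.18 (n = 11) (exact permutation p = 0.00549, adjusted p = 0.0201). The AsiSI library of the run that held both baits stood at 19.6%, below all 3 Cas9 libraries, and the test did not account for the run. Among unmarked prey the means were 39.6% ± 4.04 and 19.4% ± 4.56.

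Other properties did not pass the test between the baits. Long overlaps were 4.97%, 2.42% and 15.2% of intergenic prey with Cas9 and 5.60% to 53.8% with AsiSI under DMSO (exact permutation, adjusted p = 0.490). Short overlaps and insertions had adjusted p = 0.682 and 0.701 by the same permutation test. Joins on the plus strand (49.0% and 46.7%), GC content of the surrounding 1 kb (42.3% and 42.3%) and the soft-masked share (52.4% and 56.0%) had adjusted permutation p of 0.682, 0.937 and 0.701. Telomeric prey, with no test, was 9.06%, 68.7% and 6.77% with Cas9 and 0% to 8.62% with AsiSI under DMSO.

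Intergenic prey was less dense than genic prey in AsiSI cells. The sequence meeting the rule covered 1212.5 Mb, against 861.5 Mb of gene bodies and 375.2 Mb within 3 kb of a transcription start. In the 11 AsiSI libraries under DMSO there were 0.246 ± 0.192 intergenic prey junctions per Mb, 0.319 ± 0.259 in gene bodies and 0.549 ± 0.465 near starts. Within libraries the intergenic density was 0.764 times that of gene bodies (log2 -0.39) and 0.458 times that near starts (log2 -1.13), lower in 11 of 11 libraries each time (exact sign-flip test, 2-sided, adjusted p = 0.00195 over 8 comparisons). In the 6 Cas9 libraries the ratio to gene bodies was 0.964, lower in 4 and higher in 2. For unmarked prey it was 0.811 in the Cas9 libraries, lower in 6 of 6, and 0.744 in the AsiSI libraries under DMSO, lower in 10 of 11; these last values are a description.

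Joins also differed in form from those to other prey in the same libraries. Long overlaps made up 18.6% ± 14.3 of intergenic prey over the 11 AsiSI libraries under DMSO (median 15.3%). They made up 37.6% ± 11.99 of prey on other chromosomes under 500 bp from an AsiSI motif. That was higher than in intergenic prey in 11 of 11 libraries (exact sign-flip test, adjusted p = 0.00195). However, the rule keeps the AsiSI motif, which the bait also carries, away from intergenic prey. Shared motif bases can thus lengthen overlaps only in the prey beside motifs, unmarked or not, so this difference was partly fixed in advance. Pooled over the AsiSI libraries, 14.6% of joins to that prey shared exactly 8 bases, the length of the motif. Near starts long overlaps made up 28.3% ± 18.8 of prey, higher than in intergenic prey in 10 of 11 (adjusted p = 0.00521, exact). Among unmarked prey, intergenic minus proximal prey was -17.3 points, lower in 10 of 11 (exact p = 0.00195, unadjusted), and intergenic prey minus prey near starts was -4.66 points in place of -9.65, lower in 9 of 11 and not past the threshold (exact p = 0.156). The gap to gene bodies was smaller: 21.98% ± 16.8 there, a difference of -3.35 percentage points, with intergenic prey lower in 9 of 11 libraries (exact sign-flip p = 0.0244, adjusted p = 0.0279). That difference was -1.12 points with all 3 marks left out (exact p = 0.459), and -1.87 points without clusters seen in 3 or more libraries (exact p = 0.177).

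Insertions showed the opposite order over all joins. They were 26.1% ± 13.9 of intergenic prey, 23.2% ± 11.7 of gene-body prey and 10.2% ± 2.78 of AsiSI-proximal prey. Intergenic prey was higher than gene bodies in 8 of 11 libraries (exact sign-flip p = 0.0332, adjusted p = 0.0332) and higher than proximal prey in 10 of 11 (exact, adjusted p = 0.00469). Neither difference held among unmarked prey: insertions were 11.3% ± 5.17 of intergenic, 10.5% ± 4.44 of gene-body and 10.2% ± 2.79 of proximal prey, with intergenic prey higher in 7 and 5 of 11 libraries (exact sign-flip p = 0.507 and 0.521, unadjusted).

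Intergenic prey fell in repeated sequence more often than its territory does. Soft-masked bases, which the reference marks as repeats, held 42.6% to 71.8% of junctions in the 11 AsiSI libraries under DMSO, with a mean of 56.0% ± 10.9. The territory of the same chromosomes was 40.8% soft-masked. All 11 libraries lay above it (mean difference 15.2 points, exact sign-flip, adjusted p = 0.00195). Of telomeric prey 90.2% was soft-masked, and of one-sided prey 93.1%. Unmarked prey was 46.1% ± 6.12, higher than its territory in 7 of 11 AsiSI libraries, and in the 6 Cas9 libraries it was 35.6% ± 3.65 against 40.1%, lower in 5. Mappability was not used, and repeats to which reads cannot be assigned lower the count by an unknown amount.

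3 further positional values were tested in the same 11 libraries and adjusted together. Junctions between 10 and 50 kb of an AsiSI motif were 0% to 6.40% of intergenic prey, mean 4.21% ± 1.76, against 2.80% of the territory, higher in 9 of 11 (exact sign-flip p = 0.0293, adjusted p = 0.0293). In the Cas9 DMSO libraries the mean was 2.53% ± 0.570, and the difference between baits did not pass (exact permutation p = 0.143). Junctions under 10 kb from a gene were 32.2% ± 5.91, against 26.3% of the territory, higher in 8 of 11 (exact p = 0.0107, adjusted p = 0.0293); with Cas9 they were 25.5% ± 1.52 (exact permutation p = 0.0962 between baits). The plus strand carried 46.7% ± 4.30, above 50% in 2 of 11 libraries (exact p = 0.0254, adjusted p = 0.0293). For unmarked prey, pooled over libraries, the plus strand carried 49.4% with AsiSI and 50.6% with Cas9.

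The values on both sides of the thresholds were as follows. Between 9 and 10 kb of a motif, just outside the rule, lay 25 junctions, and between 10 and 11 kb, just inside, 22. Between 2 and 3 kb of a start lay 499 junctions and between 3 and 4 kb 562. The 4 left-out windows held 5651 junctions, of which 513 would otherwise have met the rule.

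Sites that differ from the AsiSI motif by 1 base took little of the intergenic prey. 38 junctions (0.291%) fell within 50 bp of such a site, at 34 sites, where 0.217% of the territory lies. They were 22 with the AsiSI bait and 16 with the Cas9 bait. Per library they were 0% to 1.92% in the 11 AsiSI libraries under DMSO and 0.151% to 0.439% in the 3 Cas9 libraries (exact permutation p = 0.637, adjusted p = 0.701). The only junction within 50 bp of a site resembling the guide came from an AsiSI library, CK-666 replicate 3. The share of the territory near such sites was not computed.

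Most places with intergenic joins were seen in 1 library, and these places held 8746 of the joins (67.1%). Chaining junctions within 1 kb gave 8622 clusters, of which 8219 (95.3%) were seen in 1 library, 221 in 2, 53 in 3 and 129 in 4 or more. Of the 8622 clusters, 7749 held a single junction and could only be seen in 1 library. The 129 held 3508 junctions (26.9%), and 92 of them were mostly telomeric. 104 of the 129 were seen with both baits, 23 with AsiSI alone and 2 with Cas9 alone. These numbers were not compared, because the 4 libraries could come from 26 with AsiSI but only 6 with Cas9. 1 of the 129 had a 1-mismatch AsiSI site within 500 bp, where 1.90% of the territory lies. 0 had a guide-like site, for which no territory share was computed.

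A junction of another library lay within 1 kb of 32.9% of intergenic prey (4291 junctions), where positions spread evenly over the territory would give 2.19%. With only libraries of other sequencing runs the value was 30.5%, against 1.44%. The same position and strand recurred for 17.6%. By class, 99.1% of telomeric prey, 32.6% of one-sided prey and 24.6% of prey with bait past the break recurred within 1 kb, but 7.52% of unmarked prey. Unmarked prey compared with unmarked prey alone recurred in 6.90%, against 1.41% for even spread. The values were 10.3% for unmarked AsiSI joins and 4.36% for unmarked Cas9 joins, and they were not compared because the number of libraries that could match differs, 26 against 6.

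Telomeric repeats filled 10 of the 15 places seen in the most libraries. 8 of these 10 are given here. They lay at chr8:71433085-71433181 (106 junctions, 14 libraries), between Ankle1, an endonuclease, and Abhd8, at chr4:153153036-153153497 (91, 13 libraries), chr5:80500855-80500969 (81, 13), chr12:102892959-102893024 (48, 13), between Btbd7 and Cox8c, a cytochrome c oxidase subunit, chr16:98107461-98107768 (110, 12), X:170880993-170881299 (68, 12), chr17:93046438-93046508 (134, 11) and chr3:149052503-149052938 (83, 11).

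Of the other 5 places, 3 are given here. Place 4, chr11:3100411-3104751, had 60 junctions at 48 positions in 15 libraries (12 AsiSI, 3 Cas9), 24.1 kb from the pseudogene Pisd-ps1. 29.4% of the 12-base words in its printed stretch also occur in the larger left-out window of chromosome 9. Place 6, X:143483006-143483109, had 18 junctions in 15 libraries of which 1 carried a mark. It lies 35.5 kb from Pak3, a p21-activated kinase. Place 11, chr9:20073333, had 15 junctions in 13 libraries at 1 position, between the olfactory receptor genes Olfr867 and Olfr868.

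Chromosomes differed in how much intergenic prey they took per Mb of intergenic territory. Summed over all 32 libraries chromosome 17 had 19.7 junctions per Mb, followed by 9 (13.8), 5 (13.6), 13 (13.5) and 11 (13.4). The order differed by bait: chromosome 13 had 4.88 with AsiSI and 8.64 with Cas9, and chromosome 11 had 7.71 and 5.74. The lowest were Y (1.52), X (6.79) and 7 (7.26). Without telomeric prey, 17 (13.9) and 11 (12.6) had the highest summed values, and 9 and 13 had 8.27 and 6.66. That lead of chromosome 17 came from the AsiSI bait (9.14); with Cas9, chromosomes 5 (5.19) and 11 (5.09) stood above 17 (4.71). Among unmarked prey 17 had 11.9, 11 had 10.8 and Y 0.898, and with Cas9 alone 17 (4.22) was below 5 (4.72), 11 (4.52) and 15 (4.37). Between baits, 0 of 20 chromosomes differed at an adjusted p under 0.05 in the exact permutation test (percent called 0, lowest adjusted p = 0.549; 1 had an unadjusted p under 0.05, chromosome 14 at p = 0.0275 by permutation). With 3 and 11 libraries this permutation test cannot give a p below 0.00275. No chromosome alone could pass the adjustment over 20, so the count of 0 does not show that the baits are alike. Copy number in these cells is not known, so the orders are a description.

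**Figure D4:**
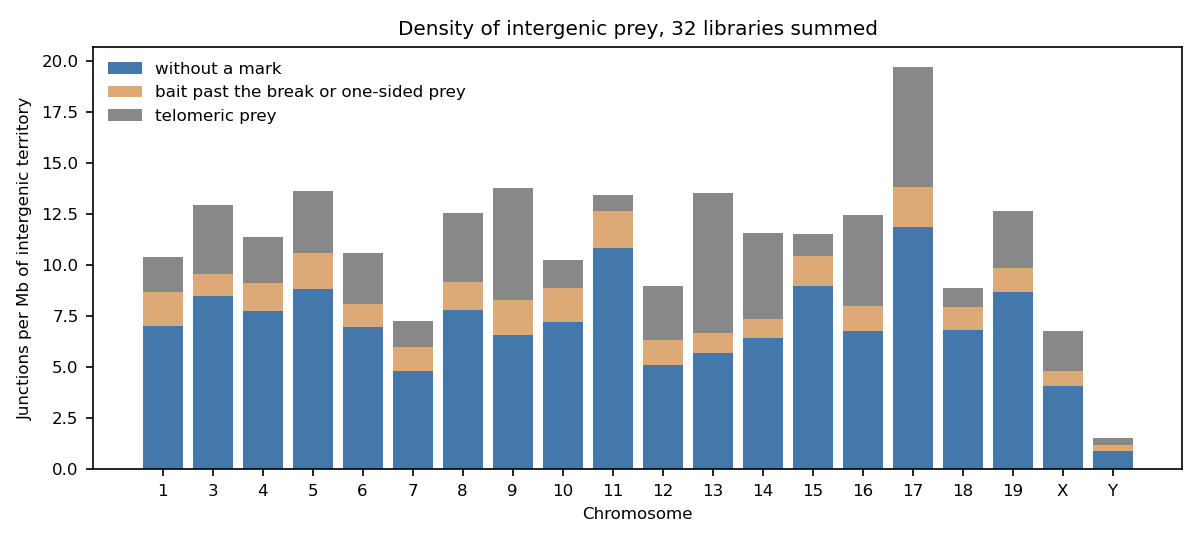
Intergenic prey junctions per Mb of intergenic territory (vertical axis) for each chromosome (horizontal axis), summed over 32 libraries, with bars stacked from unmarked prey, prey with bait past the break or one-sided prey, and telomeric prey. Chromosome 17 stands highest at 19.7 and Y lowest at 1.52.

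The treatments were compared by pairs, with the share as the log2 ratio of treated over control. The share is relative to the other junctions of the same library, so it cannot show a change in translocation frequency as such. The paper measured that frequency against bait-only reads, which was not done here. With CK-666 in AsiSI-MEFs the share was 3.79% to 7.59% in the 6 controls (median 4.57%) and 4.01% to 10.1% in the 6 treated libraries (median 6.01%). 5 of the 6 pairs went up, the log2 ratio averaged 0.33 ± 0.47 (SD), and the difference did not pass the test (exact sign-flip p = 0.125, adjusted p = 0.273 over 7 values). 6 pairs cannot give a p below 0.0313 in this exact sign-flip test, so 1 value alone could not pass the adjustment over 7. The ratio was 0.69 in the 2 pairs of 1 sequencing run and 0.15 in the 4 of the other. With marked junctions left out of the prey and of the total, the ratio was -0.02, and with them kept in the total it was -0.06. The raw number of junctions gave -0.22. Long overlaps were higher by 4.74 percentage points, in 5 of 6 pairs (exact p = 0.156, adjusted p = 0.273), by 8.42 points in the pairs of 1 run and lower by 2.60 in the other.

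With the Cas9 bait, CK-666 gave 30.8%, 45.2% and 31.4% against 27.0%, 41.9% and 33.6%, a mean log2 ratio of 0.07, higher in 2 of 3 pairs. 3 pairs cannot give a p below 0.25 in this exact test, which gave p = 0.5. The ratio in AsiSI-MEFs was larger by 0.26 than with the Cas9 bait (exact permutation p = 0.440), and 0 of 7 such differences had a permutation p under 0.05 (the smallest possible is 0.0119).

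NU7441 gave shares of 6.33%, 28.8% and 1.72% against 7.62%, 7.94% and 3.78% in the matching controls, log2 ratios of -0.27, 1.86 and -1.14 (exact p = 1, 3 pairs). The second treated library is 1 of the 3 with the most telomeric prey (306 of its 375 intergenic junctions). Unmarked prey was 2.96%, 2.08% and 1.13% of junctions under NU7441 and 4.82%, 4.18% and 3.18% in the controls, lower in 3 of 3 pairs, with a mean log2 ratio of -1.07 and no test. One-sided prey, also untested, was on average 16.5 percentage points higher among non-telomeric prey, in 3 of 3 pairs. Long overlaps were 2.65 points higher over all intergenic prey, in 2 of 3 pairs (exact p = 0.75, adjusted p = 0.875), and 12.6 points higher among unmarked prey, in 3 of 3, with no test. Blunt joins were 5.78 points lower and insertions 8.03 points higher, each in 3 of 3 pairs (exact p = 0.25, adjusted p = 0.875).

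Wiskostatin and actin R62D had 2 pairs each and were not tested. Wiskostatin gave 5.32% and 5.49% against 6.54% and 5.91%, log2 ratios of -0.30 and -0.11. Actin R62D gave 3.97% and 2.86% against 4.15% and 3.41%, log2 ratios of -0.07 and -0.25. The second actin pair rested on 46 and 34 junctions, and 95% Wilson intervals of these 2 shares were 2.15% to 3.79% and 2.45% to 4.73%, which cover counting error only.

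**Figure D5:**
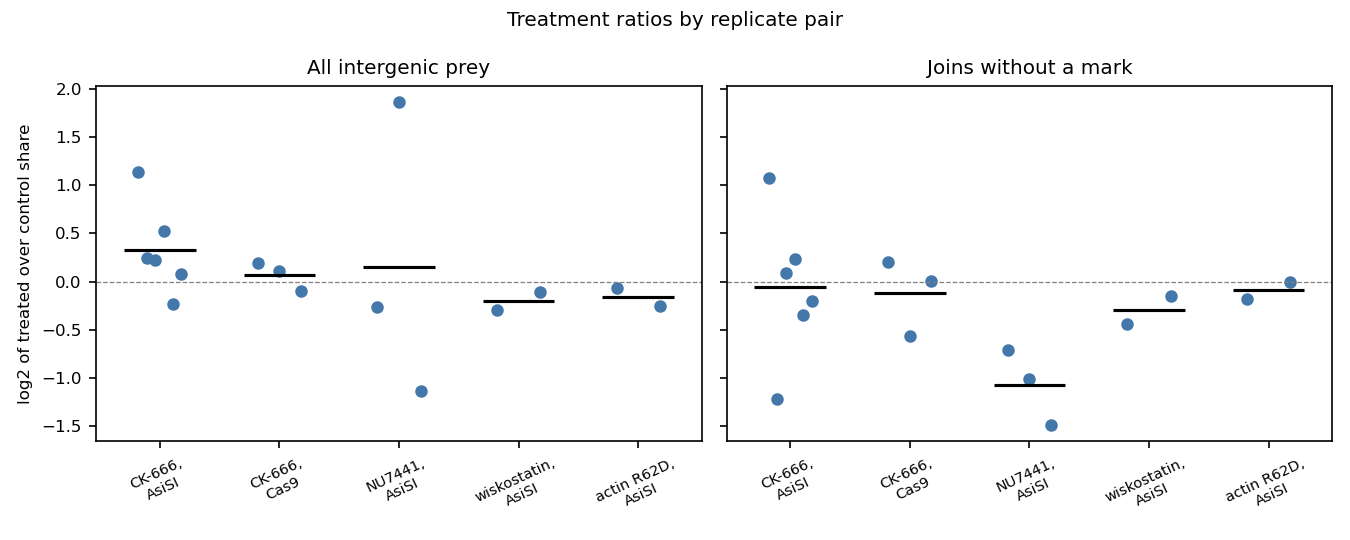
Log2 ratio of the treated over the control intergenic share (vertical axis), 1 point per replicate pair, for each treatment (horizontal axis), for all intergenic prey and for unmarked prey. Black lines are means. The 3 NU7441 points run from -1.14 to 1.86 for all prey and from -1.49 to -0.70 for unmarked prey.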

How the data were processed

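HTGTS was made from MEFs as described above. Per the labels and methods, the authors extracted and sonicated DNA, amplified from the bait with biotinylated and nested primers, sequenced on MiSeq, aligned with BWA to mm10 and ran the translocation pipeline with default filters (version not given in the sources used here), keeping mapping quality above 30. The deposited tables list positions and read coordinates of each junction (other values, neither counts nor normalised), and read numbers were not scaled to bait-only reads. Hi-C samples (12 of 44) were not analysed here.

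Here, junctions were assigned by position to GENCODE vM21 genes and the AsiSI motif list on mm10 (GRCm38) and clustered by chaining at 1 kb. Overlap is the last bait base on the read minus the first prey base, plus 1. Python 3.11.15, numpy 2.4.6 and pandas 2.3.3 were used. Paired values were compared by exact sign-flip tests and unpaired ones by exact permutation, 2-sided, with Benjamini-Hochberg adjustment over 7 values per experiment, 11 between baits, 8 within libraries and 20 chromosomes. Replicate numbers were taken as pairs because the study's source data set controls to 1 within replicate. Deviations of same-numbered libraries correlated at 0.244, 0.468, 0.462, 0.0653 and 0.299 on average (CK-666 with AsiSI, with Cas9, NU7441, wiskostatin, actin R62D) over 1-Mb windows. Places were named by rule, as the first 15 clusters by number of libraries, then junctions, and 4 of them are not reported here. The tests were checked on simulated data. The members and lists were chosen with earlier results of these data known, and the marks after the reads were seen.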

Additional observations from a re-analysis of the deposited data

Results flagged for a closer look

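Long overlaps (6 or more shared bases) made up 53.8% of the intergenic prey of the fifth DMSO control of the CK-666 experiment in AsiSI-MEFs, and the next highest control stood at 29.1%. The gap to it was 0.642 of the range of the 6 controls. This library held 132 intergenic junctions. 22 values in 2 groups of 6 libraries were examined in this way. Chance flags about 1 in 20 values, so 1 flag among 22 is about what chance would give. The matching CK-666 library stood at 64.1%.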

How the results depend on the processing

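219 alternatives were computed over 14 results, and 199 kept their direction and their side of the threshold or stayed near the value. Where the main result had a test, an alternative without a p counted as kept if its direction held. Results with 3 pairs could not cross the threshold in any alternative. Part of the 199 was therefore fixed in advance, and the count is no measure of stability. The log2 share under CK-666 in AsiSI-MEFs, 0.33, was -0.016 without the 3 marked classes and -0.22 as a raw number. With the Cas9 bait, 0.07 became -0.0818 without clusters of 3 or more libraries. For NU7441, 0.15 became -0.00622 with each position counted 1 time per library, -0.80 without those clusters, -0.46 without telomeric prey, -0.77 without all marks and -1.05 as a raw number. Wiskostatin was -0.90 as a raw number. Actin R62D was 0.0578 over distal prey alone, -0.30 more than 10 kb from starts and -0.0228 without clusters. The long-overlap gap between intergenic and gene-body prey, -3.35 points, was no longer past the threshold without clusters (-1.87), without bait past the break (-1.76), without one-sided prey (-3.02) or without all 3 marks (-1.12). Recurrence fell to 10.4% without telomeric prey and 6.90% without all marks. The cause was not tested.

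With 1 replicate or library left out in turn, the log2 share ran from 0.17 to 0.44 for CK-666, from 0.00625 to 0.15 for CK-666 with Cas9, from -0.70 (without replicate 2, the library rich in telomeric prey) to 0.80 for NU7441, from -0.30 to -0.11 for wiskostatin and from -0.25 to -0.07 for actin R62D. The bait difference ran from 24.6 to 32.1 points. Long overlap ran from -1.03 (without replicate 3) to 7.41 points for NU7441, from 3.27 to 7.64 for CK-666, from -14.9 to -7.60 between baits and from -3.77 to -2.49 against gene bodies. The 1-mismatch difference ran from 0.0348 to 0.260 and the soft-masked one from 13.7 to 16.5 points.

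Without the replicate block, in an unpaired exact permutation test, the share gave p = 0.195 for CK-666 (0.33), 0.8 with Cas9 (0.07) and 1 for NU7441 (0.15), and long overlap 0.621 for CK-666 (4.74 points) and 0.6 for NU7441 (2.65 points). Wiskostatin (-0.20) and actin R62D (-0.16) had no test. No call was made with or without the pairing, and few were possible. With 3 pairs the exact sign-flip test cannot go below p = 0.25, and with 6 pairs not below p = 0.0313. Depth limits the libraries with 18 to 64 intergenic junctions most.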

Other observations

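32 intergenic junctions had prey in which at least 50% of the 12-base words also occur in the larger left-out window of chromosome 9, 30 of them with the AsiSI bait. 17 of the 32 lay in place 4 and 10 at chr12:74803908-74804378, where they came from 6 libraries.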
